A study of Mus musculus with 15 samples.

Results

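Genes of the elastic fibre and its microfibril scaffold were followed in primary mouse embryonic fibroblasts after deletion of Hdac1, knockdown of Hdac2 or the combination; both genes encode histone deacetylases. The 10 genes considered were Eln, Fbn1, Fbn2, Mfap2, Mfap4, Mfap5, Lox, Loxl1, Efemp1 and Efemp2. A gene was measured where a probe set carried its symbol and no other, and the brightest such probe set, by its mean over the 15 arrays, represented it. That held for 8 of the 10 genes, out of 18193 symbols on the array; Fbn1 and Efemp2 were not analysed here. RNA from male fibroblasts was measured on 15 Affymetrix mouse expression arrays, in 5 groups of 3.

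Control, knockout, knockdown and doubly perturbed cells were all HDAC1 fl/fl fibroblasts that carried a retrovirus for Cre-ERT2, a Cre recombinase switched on by tamoxifen. A second retrovirus gave them a scrambled micro-RNA or one against HDAC2, which the sample titles call siRNA. Control cells had the scrambled micro-RNA and ethanol (EtOH). Knockout (KO) cells had the scrambled micro-RNA and tamoxifen at 200 nM, knockdown (Kd) cells had the micro-RNA against HDAC2 and ethanol, and cells with both perturbations had the micro-RNA against HDAC2 and tamoxifen. The last group was HDAC1 +/+ fibroblasts with tamoxifen, for which the labels do not name the viruses carried. KO cells thus differed from control cells in tamoxifen as well as in Hdac1, and these effects cannot be told apart within the floxed cells. Whether the 3 arrays of a group are separate cultures is not given in the labels, so each p-value reflects spread among arrays that may be technical.

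An elastic fibre has a core of crosslinked elastin laid down on a scaffold of microfibrils, which are polymers of fibrillin with small associated glycoproteins. Lysyl oxidases crosslink elastin and collagen, and fibulins help to bring elastin, microfibrils and the crosslinking enzymes together. Microfibrils also hold latent TGF-beta complexes in the matrix, and they give skin, lung and artery walls their recoil together with elastin. Embryonic fibroblasts are among the cells that secrete this matrix.

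RefSeq promoter windows are shown for 2 of the 8 measured genes, Mfap2 and Efemp1. Among the 6 members detected in every group, Mfap2 had the largest change in cells with both perturbations. Efemp1 had the largest change in Kd cells. Windows on 1 chromosome were left out beforehand, so other members may have windows that are not shown. Each window spans 250 bases before to 50 bases after a transcription start in build GRCm38.p6. Capitals mark the GC box GGGCGG, the core recognised by Sp1-type factors, searched on both strands, so that CCGCCC is the same motif on the other strand. The Mfap2 window lies at chr4:141010431-141010730 on the plus strand, and the Efemp1 window at chr11:28852955-28853254 on the plus strand.
Mfap2: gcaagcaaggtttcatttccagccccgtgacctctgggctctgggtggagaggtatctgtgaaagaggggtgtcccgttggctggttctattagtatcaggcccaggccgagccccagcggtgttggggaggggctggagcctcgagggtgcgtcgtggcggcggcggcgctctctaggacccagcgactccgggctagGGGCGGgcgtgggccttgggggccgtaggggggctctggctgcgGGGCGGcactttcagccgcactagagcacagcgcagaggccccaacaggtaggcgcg
Efemp1: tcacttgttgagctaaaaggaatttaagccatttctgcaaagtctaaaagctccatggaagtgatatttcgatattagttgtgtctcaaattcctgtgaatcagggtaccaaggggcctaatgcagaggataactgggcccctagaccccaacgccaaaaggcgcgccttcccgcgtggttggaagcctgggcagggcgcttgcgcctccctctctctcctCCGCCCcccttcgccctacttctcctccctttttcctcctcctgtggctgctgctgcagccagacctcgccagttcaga
The Mfap2 window held 2 GC boxes and the Efemp1 window held 1. A GC box was found in 35.7% of 32851 promoter windows of the same length, so a match is common. TATAAA was found in neither window and in 13.6% of all windows. The Efemp1 window also held 1 match to TGANTCA, a loose AP-1-like pattern in which N is any base, here with the letters tgaatca. This pattern was found in 7.81% of all windows, and the match did not overlap the GC box. A second Mfap2 window, which begins upstream of the one shown, held no GC box, 1 CCAAT (37.4% of all windows) and 1 CAGACA, a Smad-type motif (21% of all windows). These matches describe the letters only and are no evidence of binding.

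Values below are linear array intensities, and they are compared between groups for 1 gene at a time, since probe sets of different genes are not on a common scale. Fold changes are differences of log2(intensity + 16), which understate the change of dim genes. They are given with standard errors (SE) and limma's adjusted p over the 13382 genes tested, with n = 3 arrays per group. A gene was called where the adjusted p was below 0.05. The targeted genes followed their labels: Hdac1 read 3498 to 3673 in control cells, 144 to 183 in KO cells and 106 to 203 in cells with both perturbations. Hdac2 read 6536 to 7354 in control cells, 908 to 1028 in Kd cells and 1013 to 1031 in cells with both. Fibroblast markers (Col1a1, Col1a2, Col3a1, Pdgfra, Thy1, Fn1, S100a4 and Vim) were all detected, with summed intensities of 167234 to 193969 over the 15 arrays, but single markers differed. Of the 8, 4 were higher and 2 lower than control in cells with both perturbations. Over all genes 46.2% were called higher and 19.3% lower there (32.3% and 33.4% after quantile normalization). S100a4 read 20340 to 20848 in control cells and 839 to 1156 in cells with both. Col3a1 read 14792 to 16612 in control cells and 28839 to 31527 in cells with both. Of 6 endothelial markers, Pecam1, Cdh5, Tek, Emcn and Cldn5 did not pass the detection filter. The sixth, Kdr, read 12.5 to 20.2 in control cells and 53.1 to 94.3 in cells with both, and was called higher there. Outside those cells Kdr read at most 21.6, while the arrays' 40th percentiles ran from 18.8 to 22.5. It may thus have passed the filter only through the group in which it was high. In bulk RNA, fewer cells of a type and less RNA per cell cannot be told apart.

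Deletion of Hdac1, knockdown of Hdac2 and their combination gave 3 different pictures of the elastic fibre genes. In KO cells Fbn2, the fibrillin that is prominent in embryonic tissues, fell, while Mfap5, Mfap2, Lox and Efemp1 rose. In Kd cells Efemp1, which encodes fibulin-3, fell and Mfap5 rose, and the other members were not called. Among the 6 members detected in every group, none fell in cells with both perturbations. By the brightest probe sets, Mfap2 and Mfap5 rose more there than Fbn2, Lox, Loxl1 and Efemp1. Eln and Mfap4 were above the detection limit in that group alone, so their rises are lower bounds and were not ranked. The plot of intensities by array shows each of these values.

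**Figure D1:**
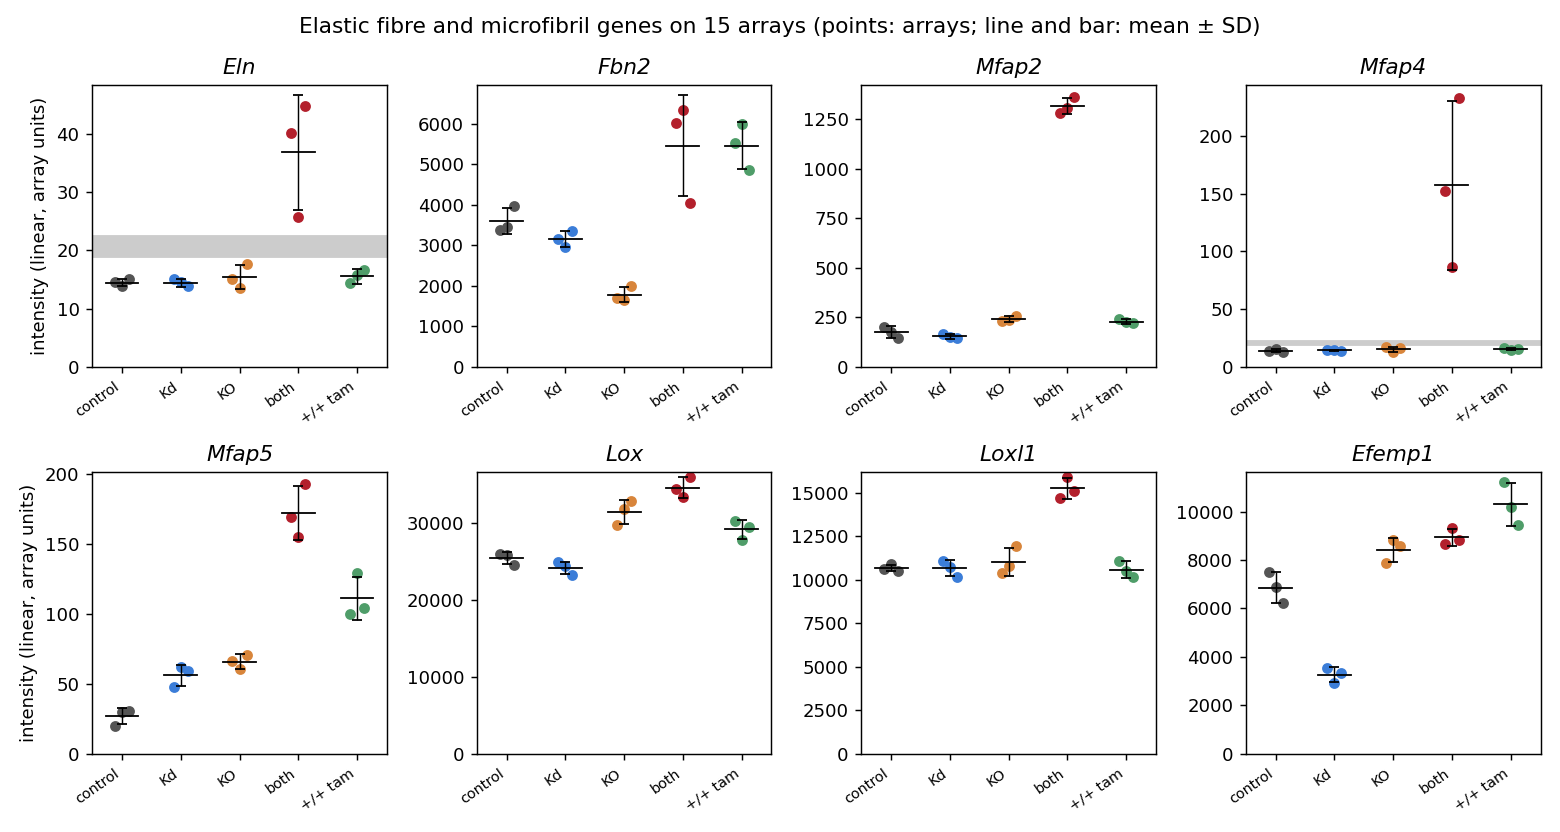
Linear array intensity (array units) of the 8 measured genes in control, Kd, KO, both and +/+ tamoxifen cells; points are the 3 arrays of a group, horizontal lines are means and bars SD, and the grey band is the range of the arrays' 40th percentiles, 18.8 to 22.5. Eln and Mfap4 lie below the band outside the cells with both perturbations, Fbn2 is lowest in KO cells (1647 to 1997) and Efemp1 is lowest in Kd cells (2911 to 3521).

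Elastin itself was close to background. Eln, the precursor of the elastic core, read 14.5, 13.8 and 15 in control cells, 15, 13.6 and 17.7 in KO cells, and 15, 14.5 and 13.8 in Kd cells. Cells with both perturbations read 40.2, 25.7 and 44.7, and +/+ cells with tamoxifen read 14.3, 15.7 and 16.7. The 3 arrays with both perturbations lay above all other arrays, and the other 4 groups overlapped. On none of those 12 arrays did the Eln probe set exceed the array's 40th percentile, so Eln entered the test only through the group in which it was high and had to differ. The rise over control was at least 1.88-fold against the detection limit, with a log2 fold change of 0.78 ± 0.1 (SE) and an adjusted p of 5.48e-06. A second Eln probe set read 14.9 to 19.1 over the 15 arrays and exceeded the 40th percentile on 0 of them, so the rise rests on 1 probe set.

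Fbn2 encodes fibrillin-2, a structural subunit of the microfibril. It was the only member called lower in KO cells than in control cells, and 1 of the 6 detected on every array. Control arrays read 3385, 3454 and 3976, and KO arrays read 1703, 1647 and 1997. Kd arrays read 3167, 2953 and 3363. Arrays with both perturbations read 6015, 6336 and 4039, and those of +/+ cells with tamoxifen 5537, 5993 and 4852. KO arrays were the lowest of all and overlapped no other group, whereas the cells with both perturbations overlapped the +/+ cells and lay above the control cells.

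Against control, Fbn2 fell 2.02-fold in KO cells (log2 -1.01 ± 0.14 SE, adjusted p = 8.26e-05), which placed it 21st from the bottom among the 13382 genes. In Kd cells its log2 value was -0.19 ± 0.14 (adjusted p = 0.482), although the 3 Kd arrays lay just below the 3 control arrays. In cells with both perturbations it rose by a log2 value of 0.57 ± 0.14 (adjusted p = 0.00172), or 0.36 (adjusted p = 0.0395) after quantile normalization. With deletion plus tamoxifen, Fbn2 thus moved in opposite directions in the 2 backgrounds. It fell 2.02-fold with the scrambled micro-RNA and rose 1.69-fold with the micro-RNA against HDAC2 (adjusted p = 0.000155). The interaction, which is the difference between these changes, was 1.77 ± 0.2 on the log2 scale (adjusted p = 2.29e-06). Its second probe set gave -0.95 for KO, 0.67 for both against control and 1.66 for the interaction.

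The microfibril-associated glycoproteins were all higher in cells with both perturbations. Mfap2 encodes MAGP-1, a small glycoprotein that binds fibrillin and growth factors of the TGF-beta family. Its control arrays read 203, 177 and 145, its KO arrays 229, 236 and 258, and its Kd arrays 165, 148 and 145. Arrays with both perturbations read 1282, 1308 and 1363, and +/+ arrays read 241, 224 and 219. The cells with both stood far above every other group, with a narrow spread among the 3 arrays, and KO and +/+ cells overlapped each other above control.

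Mfap2 rose 7.04-fold over control in cells with both perturbations (log2 2.81 ± 0.09 SE, adjusted p = 3.37e-13) and ranked 185th from the top among the 13382 genes. In KO cells it rose by 0.44 ± 0.09 on the log2 scale (adjusted p = 0.00294; 0.0554 with array weights), and in Kd cells it differed by -0.17 ± 0.09 (adjusted p = 0.307). The interaction was 2.55 ± 0.13 (adjusted p = 4.64e-10), since Mfap2 rose 7.92-fold with deletion plus tamoxifen in knockdown cells and 1.36-fold in scrambled cells. A dimmer second probe set, of a type that can match several transcripts, gave 0.99 ± 0.1 for both against control and 0.08 ± 0.1 (adjusted p = 0.606) for KO against control. The size of the Mfap2 response therefore differed between its probe sets, and its rise in KO cells was called with only 1 of them.

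Mfap4 encodes a fibrinogen-domain glycoprotein that binds elastin, fibrillin and collagen. Over the 12 arrays outside the cells with both perturbations it read 12.6 to 16.7 and never exceeded the 40th percentile. In cells with both it read 152, 86.2 and 233. Those 3 arrays were far above the others and differed among themselves more than those of Mfap2. Like Eln, Mfap4 entered the test only through this group and had to differ. The rise was at least 7.6-fold against the detection limit in control cells, with a log2 fold change of 2.44 ± 0.2 (adjusted p = 1.52e-08), and at least 7.07-fold against KO cells and at least 7.53-fold against Kd cells. Smooth muscle and pericyte markers also read higher in these cells, as given with the marker lists, and their part in the Mfap4 values was not tested.

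Mfap5 encodes MAGP-2, the second of the MAGP family, which binds fibrillins and Notch ligands. By the brightest probe sets, it was the only measured member called in the same direction in each of the 4 groups against control. Control arrays read 20, 29.8 and 30.2, KO arrays 66.2, 60.4 and 70.7, and Kd arrays 47.6, 61.7 and 59.2. Arrays with both perturbations read 169, 155 and 193, and +/+ arrays with tamoxifen read 100, 129 and 104. Control was lowest, KO and Kd cells overlapped each other, and the +/+ cells lay between these and the cells with both.

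The log2 fold change of Mfap5 over control was 0.95 ± 0.12 in KO cells (adjusted p = 2.84e-05), 0.76 ± 0.12 in Kd cells (adjusted p = 0.00033) and 2.15 ± 0.12 in cells with both (adjusted p = 1.03e-10). The combined value was close to additive on this scale: the interaction was 0.44 ± 0.16 (adjusted p = 0.0398), and it kept its call in 10 of 23 alternative analyses, with 0.24 (adjusted p = 0.326) after quantile normalization. It also lost its call without control replicate 2 or 3, KO replicate 1 or 2, Kd replicate 1, or replicate 1 or 3 of the cells with both, with values of 0.35 to 0.45. The dimmer second probe set gave 0.46 ± 0.07 for both against control, 0.17 ± 0.07 (adjusted p = 0.111) for KO and 0.03 ± 0.07 (adjusted p = 0.88) for Kd. The Mfap5 rises in KO and Kd cells were thus called with the brighter probe set only. The second probe set exceeded the 40th percentile on 4 arrays in all.

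**Figure D2:**
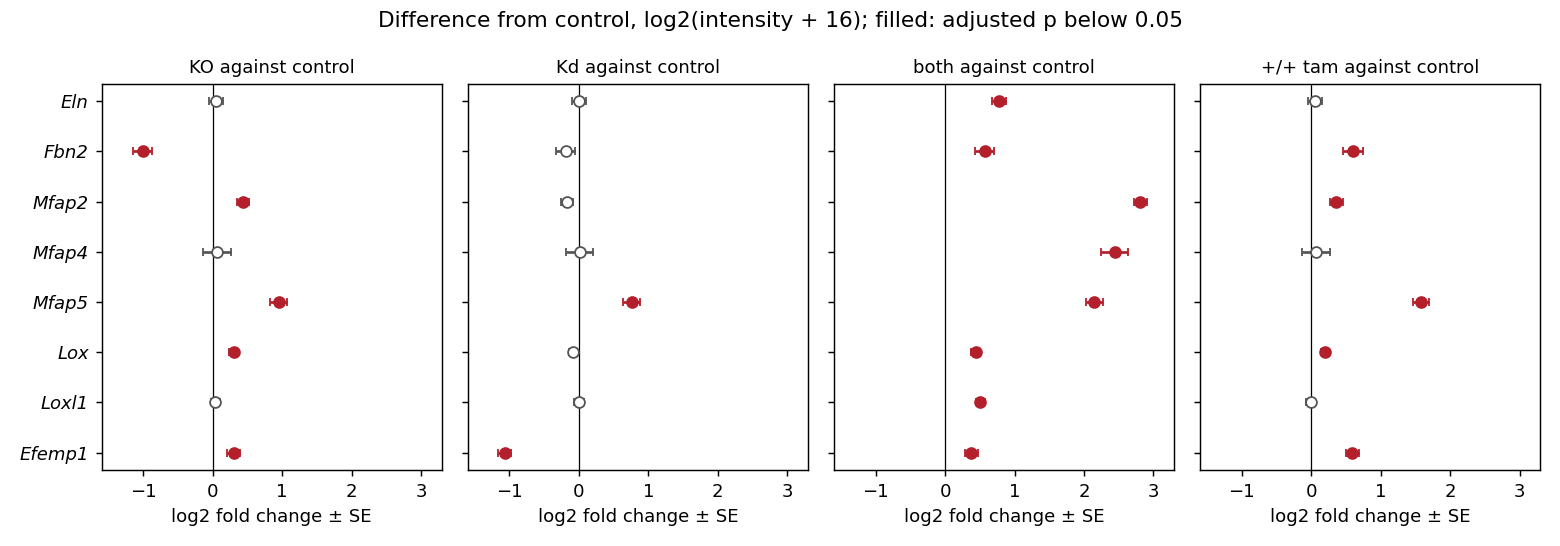
Log2 fold change against control (x axis, log2(intensity + 16), bars SE) of the 8 measured genes in KO, Kd, both and +/+ tamoxifen cells; filled points have a limma adjusted p below 0.05. Fbn2 lies at -1.01 in KO cells and Efemp1 at -1.07 in Kd cells, whereas all 8 points lie above 0 in cells with both, with Efemp1 at 0.38 and Mfap2 at 2.81; the points of Eln and Mfap4 there depend on the offset, since these genes were not detected in control cells.

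By the brightest probe sets, the crosslinking enzymes rose by less than Mfap2 and Mfap5 in cells with both perturbations. Second probe sets gave another order over control, with log2 values of 0.99 for Mfap2, 0.8 for Loxl1, 0.51 for Lox and 0.46 for Mfap5. Lox encodes lysyl oxidase, a copper enzyme that starts the crosslinks of elastin and collagen. It read 25969, 25867 and 24516 in control cells, 29655, 31740 and 32785 in KO cells, and 24841, 24346 and 23268 in Kd cells. Cells with both perturbations read 34363, 33342 and 36009, and +/+ cells with tamoxifen 30198, 27781 and 29516. All arrays with tamoxifen lay above all arrays with ethanol, and control overlapped Kd.

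Lox rose by a log2 value of 0.3 ± 0.06 in KO cells (adjusted p = 0.00281) and 0.44 ± 0.06 in cells with both (adjusted p = 1.4e-05; 0.22 after quantile normalization, adjusted p = 0.00244). The value was -0.08 ± 0.06 in Kd cells (adjusted p = 0.553). In +/+ cells with tamoxifen it was 0.2 ± 0.06 (adjusted p = 0.0317), a call that held in 9 of 17 alternative analyses. It was lost after quantile normalization (0.1, adjusted p = 0.194). The Lox interaction, 0.22 ± 0.09, did not pass (adjusted p = 0.0682). A second Lox probe set gave 0.3 for KO and 0.51 for both against control, close to the first. Unlike the first, it was called for both against KO (0.2, adjusted p = 0.0136) and not for +/+ cells against control (0.16, adjusted p = 0.0893).

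Loxl1 encodes a lysyl oxidase relative that acts on elastin in particular. It read 10647, 10884 and 10528 in control cells, 10366, 10819 and 11938 in KO cells, and 11087, 10764 and 10171 in Kd cells. Cells with both perturbations read 14731, 15936 and 15134, and +/+ cells with tamoxifen 11112, 10499 and 10170. The cells with both lay above the other 4 groups, which overlapped. Loxl1 rose by 0.51 ± 0.07 on the log2 scale in cells with both (adjusted p = 5.04e-06; 0.29 after quantile normalization, adjusted p = 2.27e-05), with 0.04 in KO cells (adjusted p = 0.691) and 0 in Kd cells (adjusted p = 0.992). The interaction was 0.47 ± 0.1 (adjusted p = 0.000857), and a second probe set gave 0.8 ± 0.13 for both against control.

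Efemp1, the fibulin-3 gene, was lowest in Kd cells, where Fbn2 was lowest in KO cells. Control arrays read 7503, 6866 and 6208, KO arrays 7861, 8813 and 8560, and Kd arrays 3521, 2911 and 3324. Arrays with both perturbations read 8657, 9320 and 8823, and +/+ arrays with tamoxifen 11231, 10192 and 9460. Kd cells lay below all others and +/+ cells above all others, while KO cells and cells with both overlapped.

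Efemp1 fell 2.1-fold in Kd cells (log2 -1.07 ± 0.09 SE, adjusted p = 7.31e-07), 37th from the bottom among the 13382 genes. It rose by 0.3 ± 0.09 in KO cells (adjusted p = 0.0252). That call was lost without control replicate 2 (adjusted p = 0.0583) or 3 (0.124), or without KO replicate 2 (0.096) or 3 (0.0669). The call was also lost with array weights (0.27, adjusted p = 0.288). In cells with both Efemp1 rose by 0.38 ± 0.09 (adjusted p = 0.00134), or 0.19 (adjusted p = 0.0343) after quantile normalization. With deletion plus tamoxifen, Efemp1 thus rose 2.75-fold in knockdown cells and 1.23-fold in scrambled cells, with an interaction of 1.16 ± 0.13 (adjusted p = 2.08e-06). Its value in cells with both did not differ by the test from that in KO cells (0.09 ± 0.09, adjusted p = 0.436).

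The members' calls are set here beside the share of all genes called, which was highest in the combined perturbation. In KO cells 4 of the 8 members were higher and 1 lower than control, while 19.6% of all genes were called higher and 4.66% lower (14% and 14.4% after quantile normalization). In Kd cells 1 was higher and 1 lower, against 7.55% and 3.04% of all genes (8.32% and 7.29%). In cells with both, all 8 were higher than control, against 46.2% higher and 19.3% lower over all genes (32.3% and 33.4%). The count of 8 includes Eln and Mfap4, which had to differ, as do all counts of members higher in cells with both and of positive interactions below, so these counts support nothing about the members as a set.

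Compared with Kd cells, 8 members were higher in cells with both, where 42.9% of all genes were called higher and 20.5% lower (31.4% and 32.6% after quantile normalization). Compared with KO cells, 6 were higher, beside 36.2% higher and 20.6% lower over all genes (30.1% and 31.2%). Lox, at 0.14 ± 0.06 (adjusted p = 0.0759), and Efemp1 were the members not called there. The interaction was positive and called for 7 members, all but Lox, beside 25.8% of genes called positive and 17.2% negative (24.2% and 25.8%). Without Eln and Mfap4, the called interactions are those of Fbn2, Mfap2, Mfap5, Loxl1 and Efemp1. Quantile normalization moved the median of all genes from 0.16 to -0.02 for both against control, from 0.13 to -0.02 for both against Kd and from 0.09 to -0.02 for both against +/+ cells. By the brightest probe sets, Lox, Loxl1, Efemp1 and Fbn2 had the smallest rises over control. They kept their direction and call after quantile normalization, with the smaller values given with each gene.

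**Figure D3:**
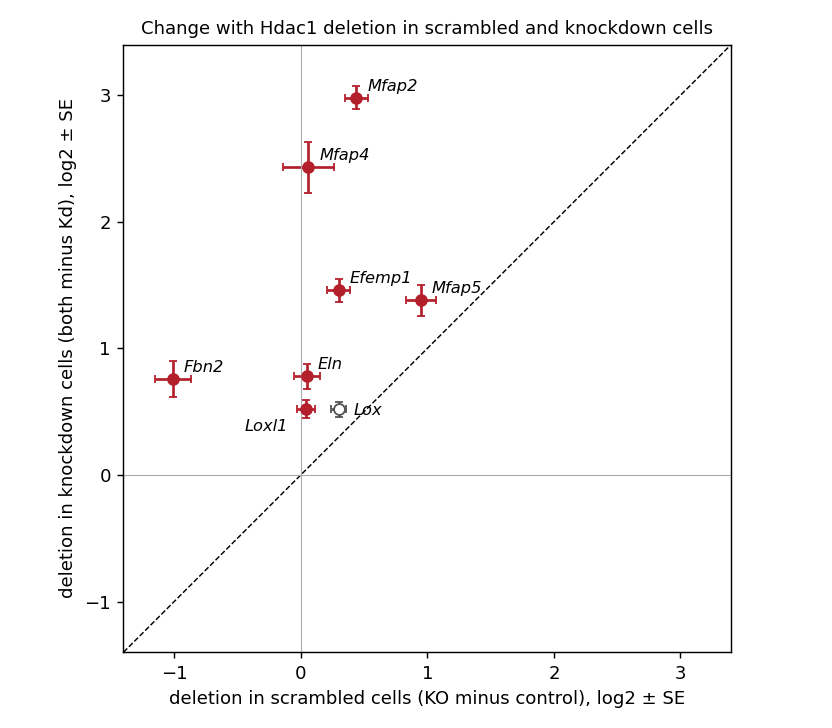
Log2 change with Hdac1 deletion in cells with the micro-RNA against HDAC2 (y axis, both minus Kd) against the change in cells with the scrambled micro-RNA (x axis, KO minus control), with SE bars; the dashed line marks equal effects and the open point, Lox, is the member whose interaction was not called. All 8 genes lie above the line, with Mfap2 at 2.98 against 0.44 and Fbn2 at 0.76 against -1.01.

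The +/+ fibroblasts with tamoxifen gave a second reference, which shares tamoxifen with the KO cells but consists of other cells. Against the ethanol-treated control, 5 members were higher in +/+ cells and 0 lower, beside 21.5% of all genes higher and 6.93% lower (14.5% and 15% after quantile normalization). Mfap5 rose by 1.58 ± 0.12 (adjusted p = 5.72e-08), Fbn2 by 0.6 ± 0.14 (adjusted p = 0.0044), Efemp1 by 0.59 ± 0.09 (adjusted p = 0.000162), Mfap2 by 0.36 ± 0.09 (adjusted p = 0.00865) and Lox by the 0.2 given above. The Mfap2 call was lost without control replicate 3 (0.24, adjusted p = 0.0532). Without that replicate 3 members were called in place of 5, since Lox was lost too.

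Of the rises seen in KO cells against control, none was called against the +/+ cells. With KO cells set against +/+ cells, 0 members were higher and 3 lower, beside 12.8% of all genes higher and 11.3% lower. Fbn2 was lower by a log2 value of -1.61 ± 0.14 (adjusted p = 3.2e-07), so its low level in KO cells was measured against either reference. Mfap5 was lower at -0.63 ± 0.12 (adjusted p = 0.000715) and Efemp1 at -0.29 ± 0.09 (adjusted p = 0.0278); the Efemp1 call was lost without +/+ replicate 1 or 2 or KO replicate 1, with adjusted p from 0.0637 to 0.134. Mfap2 gave 0.08 ± 0.09 (adjusted p = 0.629) and Lox 0.11 ± 0.06 (adjusted p = 0.27). Mfap2 and Lox, which rose in KO cells over control, thus read at overlapping levels in the KO and the +/+ cells.

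Among the 6 members detected in every group, Mfap2, Mfap5, Loxl1 and Lox were called higher in cells with both perturbations than in +/+ cells. With cells with both set against +/+ cells, 6 members were higher and 0 lower, a count that includes Eln and Mfap4, which had to differ. Of all genes 38.3% were higher and 23.5% lower (31.9% and 32.7% after quantile normalization). The difference was 2.45 ± 0.09 for Mfap2 (adjusted p = 2.12e-12), 0.57 ± 0.12 for Mfap5 (adjusted p = 0.000409), 0.53 ± 0.07 for Loxl1 (adjusted p = 4.28e-06) and 0.25 ± 0.06 for Lox (adjusted p = 0.0033; 0.12 and 0.0672 after quantile normalization). Mfap4 was at least 7.16-fold and Eln at least 1.77-fold higher. Fbn2 overlapped between the groups at -0.02 ± 0.14 (adjusted p = 0.906), so that its rise in cells with both was not seen against this reference. Efemp1 was -0.2 ± 0.09 (adjusted p = 0.0641), called lower after quantile normalization (-0.31, adjusted p = 0.00202).

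**Figure D4:**
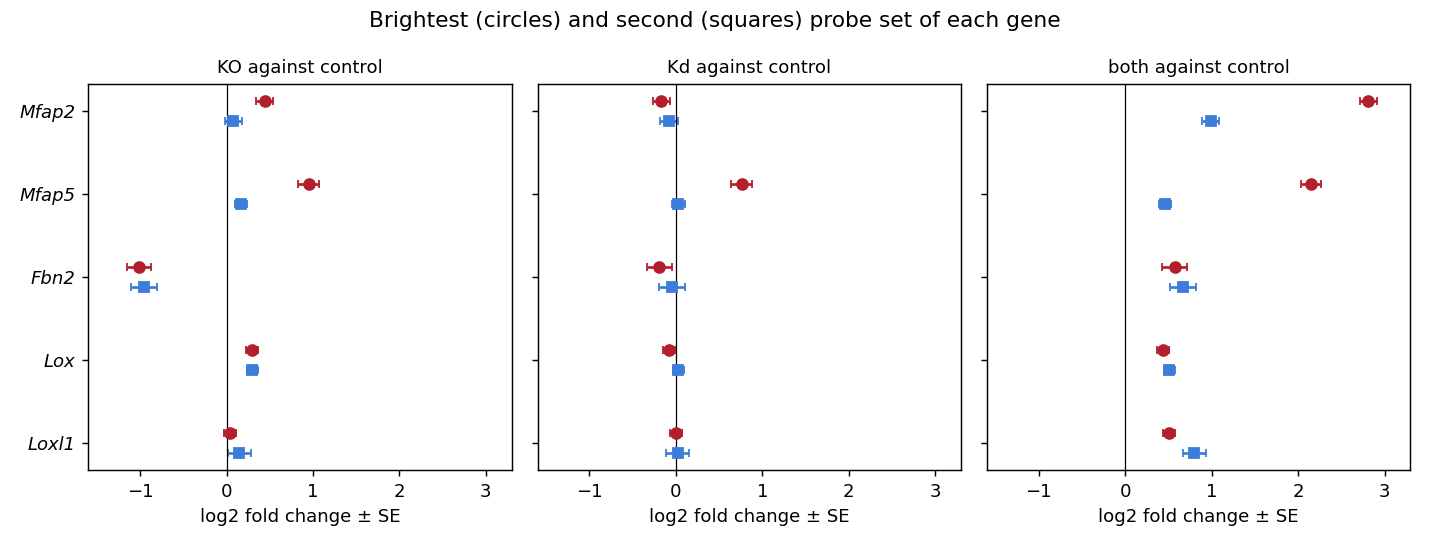
Log2 fold change with SE (x axis) for the brightest (circles) and the second (squares) probe set of the 5 genes with more than 1 tested probe set, in KO, Kd and both against control. The squares of Fbn2 and Lox lie near their circles, whereas those of Mfap2 and Mfap5 lie closer to 0 (0.99 against 2.81 and 0.46 against 2.15 in cells with both).

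Genes whose log2 values followed a member most closely over the 15 arrays were listed by Pearson's r, as a description, since the arrays share 5 groups. For Mfap2 these were Cxcl12 (0.994), a chemokine, Ctsb (0.994), a lysosomal protease, and Atox1 (0.993), a copper chaperone. For Fbn2 they were Acan (0.945), the cartilage proteoglycan aggrecan, Pdgfra (0.94), a growth factor receptor of fibroblasts, and Rhog (0.939). Acan read 292 to 379 in control cells, 85.6 to 129 in KO cells, 1701 to 1916 in cells with both and 1124 to 1518 in +/+ cells, which is the order of Fbn2 apart from Kd cells at 358 to 416. Efemp1 was nearest to Cnrip1 (0.939), Plagl1 (0.938) and Nt5e (0.935), and Mfap5 to Spsb1 (0.975), Pappa (0.972) and Plin2 (0.972). Mfap4 was nearest to Bex4 (0.996), Srsf12 (0.995) and Col27a1 (0.995), and Eln to Susd2 (0.988), Cxcl16 (0.983) and Bex4 (0.983). The crosslinking enzymes had other neighbours: Clba1 (0.974), Ak1 (0.97) and Slc20a1 (0.969) for Lox, and Anxa4 (0.986), Atg16l2 (0.983) and Rogdi (0.983) for Loxl1.

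Other genes of elastic fibre assembly moved in both directions. Of 32 relatives (fibulins, latent TGF-beta binding proteins, emilins, further lysyl oxidases, their activating proteases and microfibril-associated ADAMTS proteins), 26 were tested. Among them 18 were higher and 3 lower in cells with both perturbations, with a list median of 0.51 beside 0.16 over all genes, of which 46.2% were called higher and 19.3% lower. After quantile normalization 14 were higher and 5 lower, beside 32.3% and 33.4% of all genes. Fbln7, a short fibulin, read 445, 251 and 326 in cells with both and 11.7 to 19.3 elsewhere. It and Thsd4, which are among the 26 tested, were tested only through the cells with both and had to differ.

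Named relatives included proteases that act on crosslinking enzymes, and binding partners of fibrillin. Tll1, a tolloid-like protease that processes lysyl oxidase precursors and other matrix proteins, rose by 1.1 ± 0.11 in KO cells (adjusted p = 6.18e-06), 1.1 ± 0.11 in Kd cells (adjusted p = 7.05e-06) and 2.32 ± 0.11 in cells with both (adjusted p = 3.53e-11). Its interaction was 0.12 ± 0.16 (adjusted p = 0.589), and it also rose by 1.19 ± 0.11 in +/+ cells. Adamts6, a metalloprotease of the microfibril-associated group, rose by 1.45 ± 0.11 in Kd cells (adjusted p = 2.17e-07) and 2.06 ± 0.11 in cells with both (adjusted p = 8.56e-11). Adamtsl4, a fibrillin-binding protein, fell by 2.02 ± 0.13 on the log2 scale in cells with both (adjusted p = 7.02e-10). Loxl4, another lysyl oxidase, fell with deletion in knockdown cells, with 426 as its mean in Kd cells and 107 in cells with both (log2 -1.85 ± 0.09, adjusted p = 7.81e-11).

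In the single perturbations the relatives split. In KO cells 8 of the 26 were higher and 2 lower (median 0.16 beside 0.08 over all genes, 19.6% higher and 4.66% lower), and in Kd cells 3 were higher and 5 lower (median -0.11 beside 0.04, 7.55% and 3.04%). These counts were less settled: with array weights 3 were higher in KO cells and 8 lower in Kd cells, and the 5 lower in Kd cells became 8 after quantile normalization, 1 without control replicate 2, 3 without control replicate 3 and 2 without each Kd replicate in turn. Emilin1, an elastin-interface glycoprotein that limits TGF-beta processing, fell by 0.62 ± 0.09 in KO cells (adjusted p = 0.000168), and it was 0.11 ± 0.09 in cells with both (adjusted p = 0.316). Emilin2 fell by 0.84 ± 0.11 in Kd cells (adjusted p = 6.44e-05). These genes fell in the same single perturbations as Fbn2 and Efemp1, respectively. Adamtsl5, a microfibril protein, rose by 0.71 ± 0.14 in KO cells (adjusted p = 0.00131; 0.08 with array weights). In +/+ cells with tamoxifen 11 relatives were higher (7 without +/+ replicate 1) and 6 lower, beside 21.5% and 6.93% of all genes. After quantile normalization 8 were higher and 9 lower, beside 14.5% and 15%. Among those called were Fbln2 (0.72 ± 0.07, adjusted p = 1.72e-06), Ltbp4 (-0.73 ± 0.12, adjusted p = 0.000361) and Fbln1 (-0.69 ± 0.11, adjusted p = 0.000304).

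Proteases that can degrade elastin were higher in cells with both perturbations. Of 10 on the list 6 were tested, and 6 were higher and 0 lower there (median 1.01 beside 0.16 over all genes, of which 46.2% were higher and 19.3% lower, or 32.3% and 33.4% after quantile normalization). Ctsk, an elastinolytic cathepsin, read 23.5, 22.9 and 25.9 in control cells, 81.5, 93.4 and 62.4 in Kd cells and 129, 179 and 179 in cells with both. It rose by 1.23 ± 0.14 in Kd cells (adjusted p = 1.71e-05) and 2.14 ± 0.14 in cells with both (adjusted p = 1.03e-09). Mmp2, Ctsb and Mmp9 rose by 1.26, 1.05 and 0.97 in cells with both, with adjusted p of 6.35e-11, 4.05e-10 and 4.78e-06. Mmp9 was dim, at 23.1, 19.5 and 19.8 in control cells and 39.9, 76.6 and 56 in cells with both. Its control values lay near the arrays' 40th percentiles, 18.8 to 22.5, so its log2 value depends on the offset. In KO cells 3 of the 6 were higher and 0 lower, beside 19.6% and 4.66% of all genes. In Kd cells 2 were higher and 0 lower, beside 7.55% and 3.04%; the call of Mmp2 was lost without any single control or Kd array and with the replicate block, which left 1, whereas the mean of probe sets gave 4.

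Receptors of elastin and microfibrils were all measured, 11 of 11. In KO cells 9 were higher and 0 lower (median 0.42 beside 0.08), while 19.6% of all genes were higher and 4.66% lower. Cells with both had 7 higher and 3 lower (median 0.88 beside 0.16), beside 46.2% and 19.3% of all genes (32.3% and 33.4% after quantile normalization). In Kd cells 2 were higher and 1 lower, beside 7.55% and 3.04%; leaving out single control or Kd arrays gave 1 to 2 higher and 0 lower. Itga8, an integrin subunit of mesenchymal cells, rose by 1.29 ± 0.16 in KO cells (adjusted p = 2.88e-05) and 3.05 ± 0.16 in cells with both (adjusted p = 6.67e-11). Neu1, the sialidase of the elastin receptor complex, rose by 1.01 ± 0.19 in KO cells (adjusted p = 0.00115; 0.0892 with array weights) and 2.87 ± 0.19 in cells with both (adjusted p = 1.31e-09). Glb1, whose spliced form is the elastin-binding subunit of that complex, rose by 0.64 ± 0.07 and 1.72 ± 0.07 in the same groups (adjusted p = 1.63e-05 and 6.2e-12). In +/+ cells with tamoxifen the rises over control were 1.66 for Itga8 (adjusted p = 1.1e-06), 0.67 for Neu1 (0.0144) and 0.45 for Glb1 (0.000246). KO cells were not called different from +/+ cells for any of these 3 genes, at -0.37 for Itga8 (adjusted p = 0.103), 0.33 for Neu1 (0.234) and 0.18 for Glb1 (0.0791). Itgb3 rose by 0.73 ± 0.15 in KO cells (adjusted p = 0.00186), and its interaction was -1.72 ± 0.21 (adjusted p = 5.16e-06). The 3 receptors lower in cells with both were Lgals3, Itgb3 and Itga5. Their log2 values were -1.23 ± 0.11 (adjusted p = 6.41e-08), -0.92 ± 0.15 (3.55e-05) and -0.72 ± 0.08 (8.27e-07), respectively.

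Genes of the TGF-beta pathway, whose ligands microfibrils store, were tested for 12 of 13 on the list. In KO cells 8 were higher (5 with array weights) and 1 lower (median 0.44 beside 0.08), beside 19.6% and 4.66% of all genes. Cells with both had 9 higher and 2 lower (median 0.7 beside 0.16), beside 46.2% and 19.3% (32.3% and 33.4% after quantile normalization). In Kd cells 2 were higher and 2 lower, beside 7.55% and 3.04%; leaving out single control or Kd arrays gave 1 to 2 higher and 0 to 1 lower. The ligand Tgfb2 rose by 0.85 ± 0.13 in Kd cells (adjusted p = 0.00039) and 1.52 ± 0.13 in cells with both (adjusted p = 3.01e-08). The ligand Tgfb3 rose by 0.56 ± 0.09 in KO cells (adjusted p = 0.000314) and the receptor Tgfbr2 by 1.02 ± 0.08 in cells with both (adjusted p = 1.36e-08). Among targets, Ccn2 rose by 0.62 ± 0.08 (adjusted p = 3.76e-05) and Tgfbi fell by 0.72 ± 0.11 in KO cells (adjusted p = 0.000236). Ltbp2, a latent TGF-beta binding protein family member that lies on both lists, rose by 1.75 ± 0.08 in cells with both (adjusted p = 6.84e-12).

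**Figure D5:**
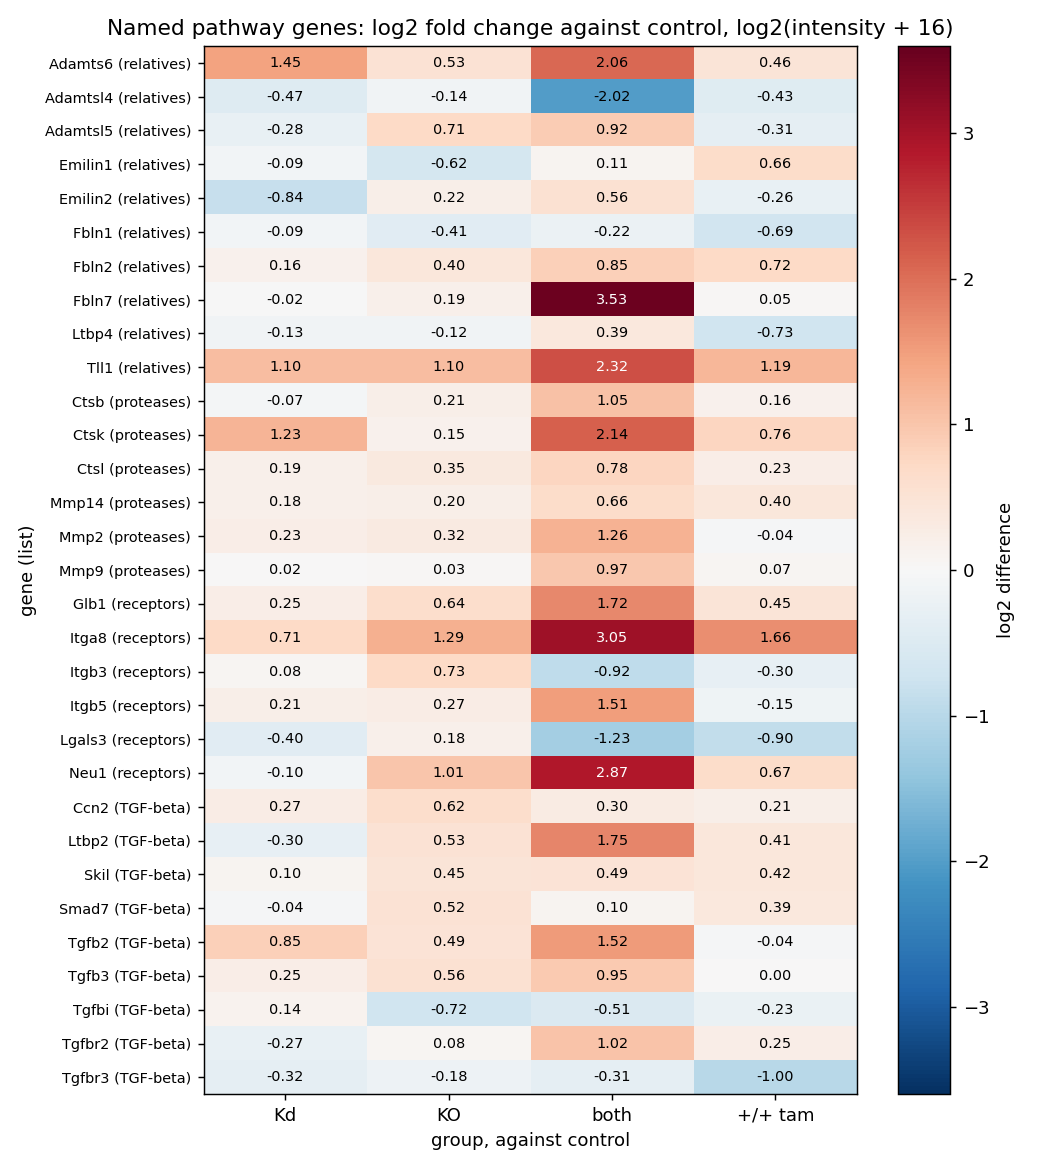
Log2 fold change against control (colour and printed value) of the 31 pathway genes that the naming rule gives for comparisons with control, by list (rows), in Kd, KO, both and +/+ tamoxifen cells (columns). Values in cells with both range from -2.02 for Adamtsl4 to 3.53 for Fbln7, and Tll1 lies between 1.1 and 2.32 in all 4 columns. The Fbln7 value depends on the offset and had to be high, since this gene was tested only through the cells with both.

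Markers of other mesenchymal cell types also differed between these groups. Their sums are dominated by the brightest probe sets and serve only to compare groups. The summed intensity of 10 smooth muscle and pericyte markers (Acta2, Myh11, Cnn1, Tagln, Des, Rgs5, Cspg4, Pdgfrb, Notch3 and Mcam), all detected, ran from 75187 to 77105 in control cells, 90363 to 101644 in KO cells and 82230 to 84395 in Kd cells. It ran from 106941 to 112250 in cells with both and from 82722 to 85151 in +/+ cells. Of these 10 markers 9 were higher and 1 lower in cells with both, beside 46.2% and 19.3% of all genes (32.3% and 33.4% after quantile normalization). In KO cells 6 were higher and 0 lower, beside 19.6% and 4.66% (14% and 14.4%). The shares for cells with both also stand beside the chondrocyte and adipocyte counts that follow. The sum of 6 chondrocyte markers, of which Matn1 was not detected, was 9771 to 10335 in control cells and 11642 to 14407 in cells with both, where 3 of the 5 tested were higher and 1 lower. Col2a1 made up most of that sum, at 8912 to 9470 in control cells and 9154 to 11911 in cells with both, and Comp read 40.2 to 57.4 and 30.6 to 34.4. Adipocyte markers, of which Adipoq was not detected, summed to 1078 to 1180 in control cells and 2220 to 2774 in cells with both, where 2 of the 3 tested were higher and 1 lower. Lpl read 29.3 to 43.7 in control cells and 1144 to 1674 in cells with both, whereas Pparg read 303 to 356 and 38 to 57.4. Their part in the rises of Mfap2, Mfap4, Mfap5, Lox and Loxl1 was not tested.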

How the data were processed

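Biotin-labelled total RNA of 15 samples was hybridised to mouse expression arrays, per the labels' protocols. The authors deposited linear intensities, 1 value for each of 45037 probe sets and 15 arrays; no label gives how these intensities were background-corrected, summarised or scaled. A platform annotation gave 1 symbol to 34945 probe sets; the other 10092, with none or several, were left out. Arrays had median intensities of 24.1 to 30.7, and none of 105 array pairs was identical. Precision is limited by 3 arrays per group, with a median SE of 0.0868 for a log2 fold change.

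The deposited intensities were transformed to log2(intensity + 16). Probe sets were kept where 3 or more arrays exceeded their own 40th percentile, and the brightest stood for its gene, which left 13382 genes. All 15 arrays were fitted in limma 3.58.1 (R 4.3.3; lmFit, contrasts.fit, eBayes) with 1 coefficient per group, for 9 comparisons, with Benjamini-Hochberg adjustment within each at a threshold of 0.05. The procedure was tested on simulated data. A lower bound ("at least") sets the mean of the cells with both against the higher of the detection limit and the dim group's own values on each array.

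The members, pathway lists and marker lists were chosen with earlier results of these data known. Members are always named; other pathway genes are named where called, at most 4 per list and comparison by absolute change. Alternatives were a pseudocount of 1, no filter or one at the 60th percentile, quantile normalization, centring on array medians, averaging all probe sets of a gene, leaving out _x_at and _s_at types, trended and robust eBayes, arrayWeights, only the compared groups, a replicate block and each array left out. For the lists they were added after seeing the data. Same-numbered arrays did not deviate together from their group means (30 pairs, r from -0.16 to 0.14, median -0.01), so the numbers were not taken to pair samples. Promoter windows are from RefSeq (GRCm38.p6). No column of the table was left unused.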

Additional observations from a re-analysis of the deposited data

Results flagged for a closer look

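For Fbn2, Mfap2, Mfap5, Loxl1 and Efemp1, 5 of the 6 elastic fibre genes detected in every group, limma's interaction term was called. The change with Hdac1 deletion plus tamoxifen thus differed between cells with the micro-RNA against HDAC2 and those with the scrambled micro-RNA. On the log2 scale, with adjusted p in parentheses, the difference was 2.55 for Mfap2 (4.64e-10), 1.77 for Fbn2 (2.29e-06), 1.16 for Efemp1 (2.08e-06), 0.47 for Loxl1 (0.000857) and 0.44 for Mfap5 (0.0398). The Mfap5 call held in 10 of 23 alternative analyses, with 0.24 (adjusted p = 0.326) after quantile normalization. Of all genes tested, 25.8% had a positive and 17.2% a negative called interaction. Fbn2 is the member whose 2 changes with deletion plus tamoxifen had opposite signs and were both called. Mfap4, at 2.37 (4.57e-06), and Eln, at 0.73 (0.000731), were tested only through the cells in which they were high, so that their interactions had to differ from 0 and support nothing.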

How the results depend on the processing

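Over the alternative analyses other than left-out arrays, 755 of 775 values of single members stayed on their side of the threshold. Of the rest, 13 lost a call and 7 gained one. In all, 0 called values changed sign, whereas sign changes of uncalled values were not counted. With single arrays left out the numbers were 427, 20, 3 and 0 of 450. With arrayWeights 3 members in place of 5 were called for KO against control, and the counts over all genes went from 3240 to 1282 for KO against control, from 1417 to 2815 for Kd against control and from 3227 to 1601 for KO against +/+ cells. Leaving out single replicates gave 3 to 5 members for +/+ cells against control (3 without control replicate 3) and 4 to 8 for the interaction (4 without replicate 1 or 3 of the cells with both, 5 without replicate 2); without any array of that group Eln and Mfap4 no longer pass the filter, and without replicate 1 or 3 Mfap5 also lost its call. The ranges were 4 to 5 for KO, 2 to 2 for Kd and 6 to 8 for both against control, 6 to 8 for both against Kd, 4 to 7 for both against KO, 2 to 3 for KO against +/+ cells and 4 to 7 for both against +/+ cells. With the replicate number as a block, the counts were 5, 2 and 8 members for KO, Kd and both against control, 8 and 6 for both against Kd and KO, 7 for the interaction, and 4, 3 and 6 for the +/+ comparisons; only Lox in +/+ cells lost its call (0.2, adjusted p = 0.0545). The 60th percentile filter left out Eln. The cause of these changes was not tested beyond what the number of genes or arrays shows.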

Other observations

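The +/+ cells with tamoxifen and the Kd cells bracketed Efemp1, from 11231 on the highest +/+ array to 2911 on the lowest Kd array. A further Lox probe set, dimmer than both described, which exceeded the 40th percentile on 2 of 15 arrays, read 14.9 to 17.1 in control cells and 18.5 to 23.9 in cells with both perturbations. Macrophage markers, of which Ptprc and Itgam were not detected, summed to 159 to 196 in control cells and 216 to 309 in KO cells. Csf1r read 71.5 to 97.6 in control cells and 116 to 208 in KO cells, whereas Adgre1, Cd68 and Lyz2 overlapped between these groups. Of the 4 tested, 1 was higher and 0 lower in KO cells, beside 19.6% and 4.66% of all genes (14% and 14.4% after quantile normalization).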
